A study of Mus musculus with 45 samples.

Results

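The genes described here encode 9 enzymes that build or break down triglyceride in the liver: Gpam, Agpat2, Lpin1, Lpin2, Dgat1 and Dgat2 on the assembly side, and Pnpla2, Pnpla3 and Mgll on the lipolysis side. They were chosen by name, as 9 of the 21631 mouse genes annotated as protein-coding on the autosomes and X. For each gene, the chromatin immunoprecipitation (ChIP-seq) peaks of REV-ERBα were taken whose summit lay inside the annotated gene span or within 50 kb of it. In the ZT22 list 0 of 36 peaks met this rule, and in the ZT10 list 65 of 27929 did.

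REV-ERBα is a nuclear receptor and transcriptional repressor whose level in liver follows the circadian clock, and it binds DNA at sites built around the sequence AGGTCA. Triglyceride is assembled on a glycerol backbone: an acyltransferase adds a fatty acid to glycerol-3-phosphate, another adds a further fatty acid to give phosphatidate, lipins remove the phosphate to give diacylglycerol, and diacylglycerol acyltransferases complete the molecule. Lipases then release the fatty acids step by step from lipid droplets. Hepatic fat storage varies over the day, and REV-ERB receptors are known as repressors of lipid synthesis genes in this tissue.

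Of 45 samples in 18 groups, 8 in 2 groups were pooled into the peak lists used here. Both are livers of mice homozygous for an endogenous REV-ERBα with a 3HA epitope tag (REV-ERBa3HA/3HA), given no AAV vector and immunoprecipitated with anti-HA magnetic beads, with 4 samples taken at ZT22 and 4 at ZT10. ZT counts hours of the light-dark cycle from lights on. Age and sex of the mice are not given in the sources used here, and the other samples were not analysed here. Each list merges the 4 samples of its time, so values carry no spread between animals, and no test between the times was made. Whole liver holds several cell types, and the lists do not say in which of them a site was bound. Hepatocyte marker genes had a ZT10 summit within 10 kb in 6 of 6 cases, against 2 of 6 Kupffer cell and 2 of 6 lymphocyte markers, and 54.5% of all protein-coding genes. Within 50 kb the counts were 6 of 6, 2 of 6 and 4 of 6, against 70.5% of all protein-coding genes. A site of fold 10 or more was found at 6, 0 and 2 of them, against 35.3%. The highest at a lymphocyte marker was 18.7.

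A fold here is the authors' value for a peak, its summit over the local background. Fragments at each summit were worked out from the fold and the p-value of the same peak, and the 95% intervals below are exact Poisson intervals on these fragments. They cover counting error only. The ZT10 list begins at a fold of 4.01 and holds no summit of fewer than 83 fragments, and its median fold is 6.81.

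At ZT22 none of the 9 genes had a REV-ERBα peak, and at ZT10 all 9 had. A summit within 50 kb was found at 0 of 9 genes at ZT22, where 0.157% of all protein-coding genes had one, and at 9 of 9 at ZT10, where 70.5% had one. The ZT22 peak nearest to any of the 9 lay 4.04 Mb from Pnpla3. The ZT22 list holds no fold below 4.08, so weaker binding at these genes at ZT22 would not appear in it. With so small a share of all genes near a ZT22 peak, a count of 0 does not set these genes apart.

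At ZT10 the genes carried many sites rather than uniformly strong ones. The number of summits per gene was 4 to 15 with a median of 6, against a median of 2 over all protein-coding genes. Gpam, Dgat2 and Pnpla2, 3 of the 9, had 9 or more, as did 5.76% of all protein-coding genes. Not all of these sites are nearest to the enzyme genes: 33 of the 65 had one of the 9 as the nearest protein-coding gene, among them 8 of 9 at Gpam, 6 of 15 at Dgat2 and 1 of 9 at Pnpla2. Per 100 kb of window, the span with its flanks, the medians were 5.45 sites at the 9 genes and 1.60 over all genes. The windows themselves had median lengths of 129 kb and 117 kb. The 6 hepatocyte markers had a median of 7 sites per gene within 50 kb. The median fold over the 65 sites was 7.27, against 6.81 over the list, and 21 of the 65 (32.3%) had a fold of 10 or more, against 26.98% of all ZT10 peaks. The sites were wide, at a median of 2806 bp against 1679 bp.

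**Figure D1:**
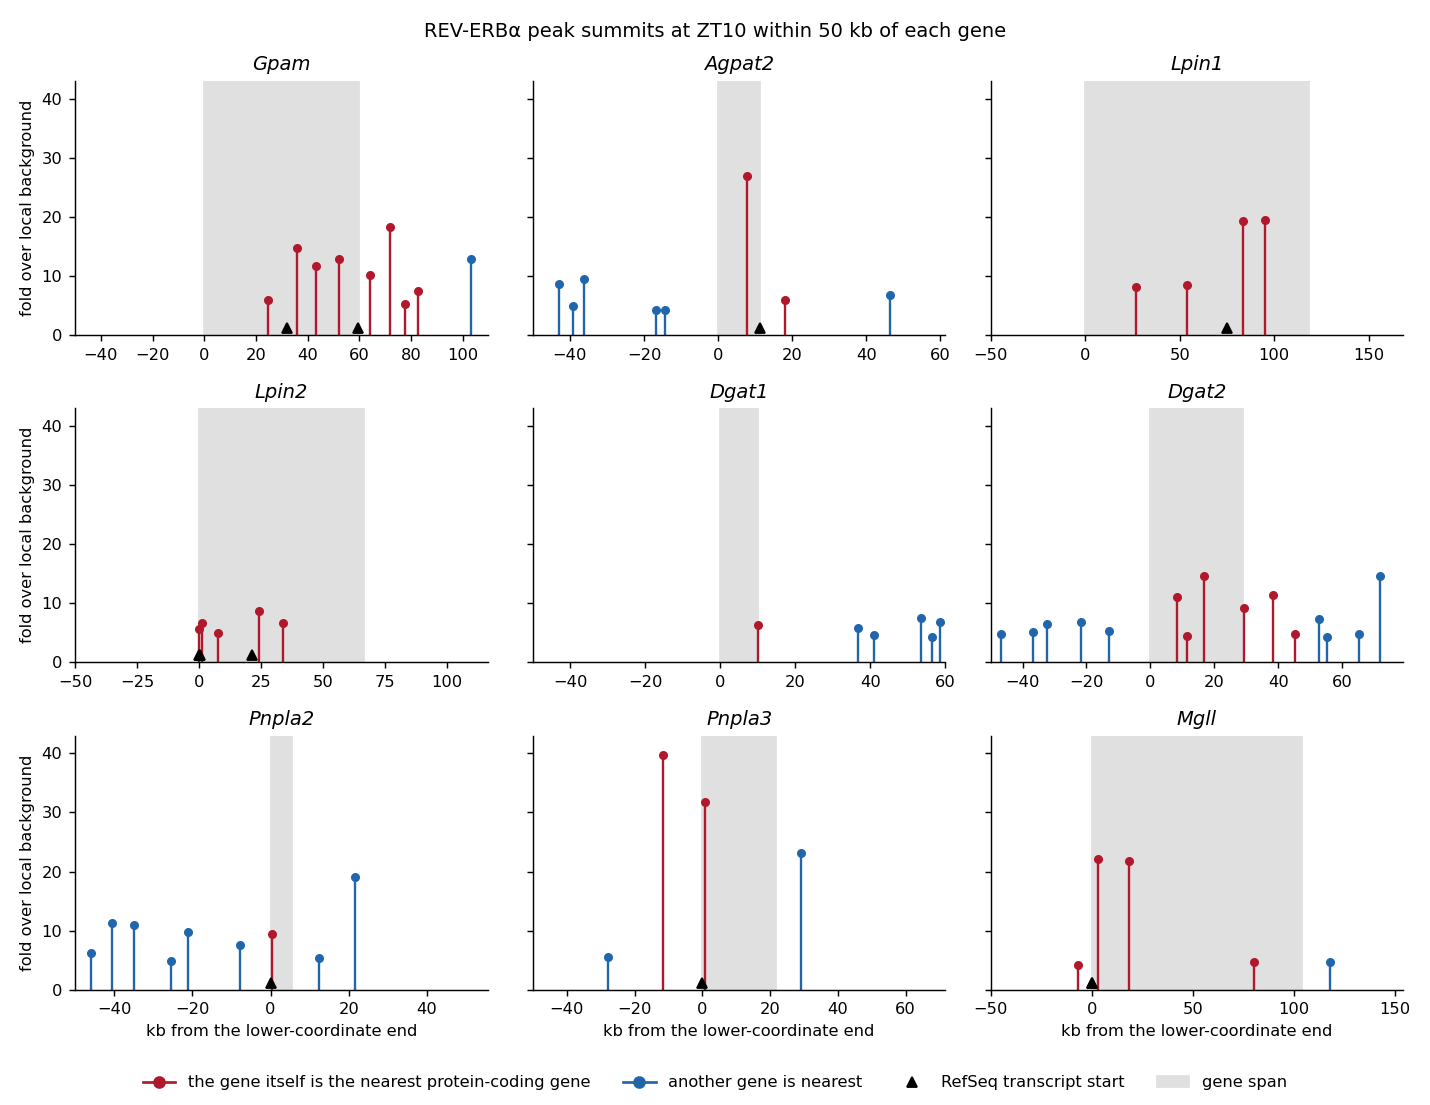
ZT10 summits at each of the 9 genes, plotted by distance in kb from the lower-coordinate end of the gene (horizontal axis) and fold over the local background (vertical axis). Grey marks the gene span, triangles mark RefSeq transcript starts where the table gives them, red sites have the named gene as nearest and blue sites another gene. Gpam and Dgat2 carry rows of sites, Pnpla3 a few tall ones, and Dgat1 only low ones.

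The strongest site of a gene reached a fold of 10 or more at 7 of the 9 genes, and 35.3% of all protein-coding genes had such a site. The count was 6 within 10 kb or with each site given to its nearest gene only, since the strongest site in the Pnpla2 window lay inside Tspan4, and Pnpla2 then had 9.43. The 35.3% is for a reach of 50 kb, and shares of all genes for these narrower counts are not given here. The median of the strongest fold was 19.1 over the 9, against 10.0 over all genes with a site. Pnpla3 led with 39.8 (37.2 to 42.5), followed by Agpat2 with 26.9 (24.8 to 29.1) and Mgll with 22.2 (20.2 to 24.2), and the interval of each of the first 2 lay clear of the next. Mgll and Lpin1, with 19.4 (17.6 to 21.4), had overlapping intervals. Those of Lpin1, Pnpla2 with 19.1 (17.3 to 21.0) and Gpam with 18.2 (16.5 to 20.1) also overlapped. The order of Lpin1, Pnpla2 and Gpam was thus not resolved by these intervals, while that of Mgll lay just above that of Gpam. Dgat2 had 14.7 (13.1 to 16.4). Lpin2 and Dgat1 stood lowest, with 8.69 (7.51 to 10.0) and 7.45 (6.36 to 8.68), and their intervals overlapped. The site of 7.45 lay 43523 bp outside Dgat1, with Slc52a2 as the nearest gene. The site nearest to Dgat1 itself had 6.27 (5.34 to 7.30), an interval below that of Lpin2.

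**Figure D2:**
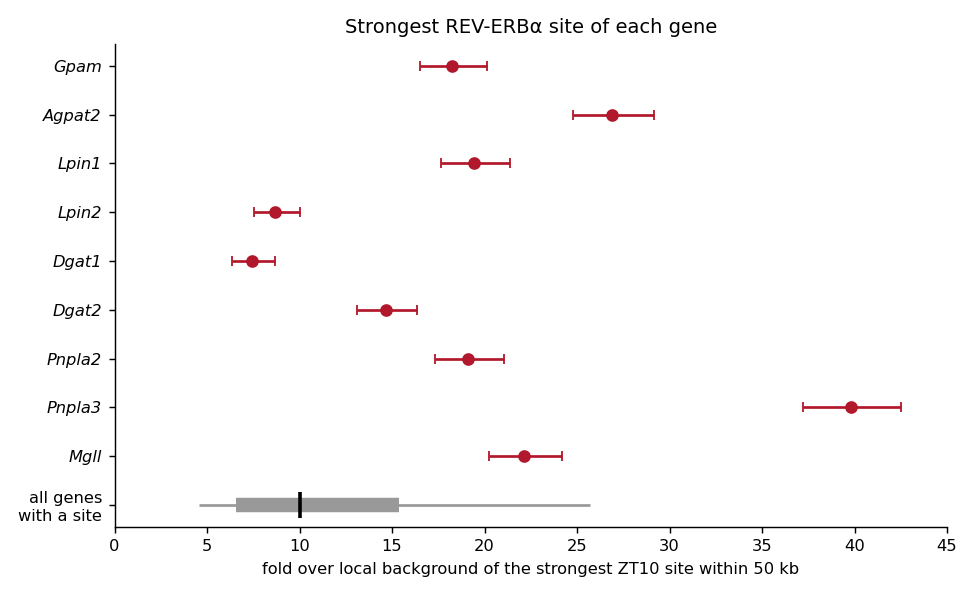
Fold over the local background of the strongest ZT10 site within 50 kb of each gene, with 95% Poisson counting intervals. The grey row gives all protein-coding genes with a site, with the median as a black bar, the middle 50% of genes as a thick line and the middle 90% as a thin line; Pnpla3 at 39.8 is highest, and Lpin2 and Dgat1 lie below the median of 10.0.

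Gpam encodes the mitochondrial glycerol-3-phosphate acyltransferase that commits fatty acids to glycerolipid synthesis. It lies on chromosome 19 from 55067635 to 55127319 on the minus strand, and its window held 9 summits and no other protein-coding gene. Of these, 4 lay inside the span and 8 had Gpam as the nearest gene. The strongest, with a fold of 18.2, lay 12236 bp upstream of the outer transcript start, from 55137750 to 55140679. Inside the span, 3 wide peaks with folds of 14.7, 11.6 and 12.8 followed each other with gaps of 234 and 788 bp. Together they covered 32.2 kb of a stretch of 33.2 kb that reached across both annotated starts. Peaks covered 55.1% of the span, against a median of 0% over all protein-coding genes. The remaining Gpam sites had folds of 5.28 to 12.9, and the one of 12.9 lay 43359 bp outside the span with Tectb as the nearest gene.

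The inner Gpam start lay under the peak of fold 14.7, whose summit was 3974 bp upstream of it. The 250 bases before this start are shown because they hold an AGGTCA, in capitals, that begins 196 bases before the start. The sequence is from RefSeq GRCm38.p6, minus strand, chr19:55099478-55099727.
Gpam inner start: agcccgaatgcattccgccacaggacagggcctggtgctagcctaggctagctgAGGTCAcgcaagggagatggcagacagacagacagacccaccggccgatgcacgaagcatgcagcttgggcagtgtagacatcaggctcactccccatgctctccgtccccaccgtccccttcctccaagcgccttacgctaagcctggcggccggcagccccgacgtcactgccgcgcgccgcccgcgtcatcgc

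Agpat2 encodes the acyltransferase that turns lysophosphatidate into phosphatidate. Its strongest site was the second highest among the 9 genes, at 26.9 with 581 fragments (535 to 630), and ranked 407 in the ZT10 list. This peak was 10902 bp wide, from 26594401 to 26605302 on chromosome 2, with its summit 3443 bp downstream of the start. It covered the promoter and 88.2% of the short gene, which is the highest cover of the 9. A weaker site of 5.84 lay 6831 bp upstream. The other 6 sites in the window, with folds of 4.24 to 9.43, had other genes as nearest, of which Egfl7, an endothelial secreted factor gene, had 5 and Dipk1b had 1.

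The lipins Lpin1 and Lpin2 encode phosphatidate phosphatases, and Lpin1 also acts in the nucleus as a transcriptional coregulator. Their sites lay within the genes themselves or at their edge, but differed in strength. Lpin1 had 4 summits inside its span of 118 kb on chromosome 12, with folds of 8.19, 8.46, 19.2 and 19.4. The table gives 1 start for Lpin1, on the minus strand and well inside the span. Measured from it, the 2 strong sites lay 8091 and 19721 bp upstream, although both were inside the annotated span, and the 2 weaker ones lay 21239 and 48312 bp downstream. No peak covered this start. The 250 bases before it are shown because they hold an AGGTCA, in capitals, 74 bases before the start without a peak over it (RefSeq GRCm38.p6, minus strand, chr12:16610967-16611216).
Lpin1: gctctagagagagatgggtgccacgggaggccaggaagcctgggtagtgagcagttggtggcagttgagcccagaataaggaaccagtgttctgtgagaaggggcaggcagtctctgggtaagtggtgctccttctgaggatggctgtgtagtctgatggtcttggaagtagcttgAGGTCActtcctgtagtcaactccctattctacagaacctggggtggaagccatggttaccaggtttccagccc

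Lpin2, on the plus strand of chromosome 17, had 5 sites, all with Lpin2 as the nearest gene and none with a fold of 10 or more. Its strongest, at 8.69, lay 3095 bp downstream of the innermost of 3 annotated starts, under a peak 9043 bp wide. A pair of peaks separated by 91 bp had summits on either side of the 2 outer starts, 133 bp upstream of the outermost (fold 5.57) and 500 bp downstream of the next (6.58). Promoter windows were the 250 bases before a start and the 50 after it. Among the 44 summits at genes with known starts, only the one 133 bp upstream of the outermost Lpin2 start fell inside a window of these genes. The 250 bases before that start are shown for this reason, with the 21 bases centred on the summit in capitals (RefSeq GRCm38.p6, plus strand, chr17:71183282-71183531).
Lpin2: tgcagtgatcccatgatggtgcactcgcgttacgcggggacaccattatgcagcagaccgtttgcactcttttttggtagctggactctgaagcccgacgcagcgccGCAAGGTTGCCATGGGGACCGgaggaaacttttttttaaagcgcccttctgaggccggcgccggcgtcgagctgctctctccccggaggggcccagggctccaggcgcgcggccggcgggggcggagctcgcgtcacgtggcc

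Dgat1 and Dgat2 encode unrelated enzymes for the same last step, diacylglycerol to triglyceride, and they differed in the number and strength of their sites. Dgat2, on chromosome 7 from 99153663 to 99182713, had 15 sites, more than were found at 99.4% of protein-coding genes, and 6 of them had Dgat2 as the nearest gene. Those 6 had folds of 11.1, 4.42, 14.7, 9.11, 11.4 and 4.74 in order of coordinate. The first 3 lay inside the span, where peaks covered 18.7 kb of a stretch of 19.0 kb, and the next had its summit 229 bp beyond the upper end. Of the remaining sites, 5 with folds of 4.83 to 6.81 lay inside Uvrag and 4 lay nearest to or inside Mogat2, a monoacylglycerol acyltransferase gene, of which the one inside Mogat2 had a fold of 14.6.

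Dgat1, on chromosome 15 from 76502012 to 76512021, had 1 site of its own, with a fold of 6.27 (5.34 to 7.30) and its summit 31 bp beyond the upper end of the gene. The other 5 sites in its window had folds of 4.24 to 7.45 and Slc52a2, a riboflavin transporter gene, as the nearest gene. The window of Dgat1 held 8 other protein-coding genes and that of Dgat2 held 2. The site at the end of Dgat1 was weaker than the strongest site inside Dgat2 by more than counting error, at 155 against 315 fragments, with intervals of 132 to 181 and 281 to 352. Dgat1 was also the only one of the 9 genes with no summit inside its span. Across the 9, 8 had one, against 36.2% of all protein-coding genes. Longer spans can hold more summits, and the median span was 29.1 kb for the 9 genes, against 17.3 kb for all; the part of span length in this count was not tested.

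**Figure D3:**
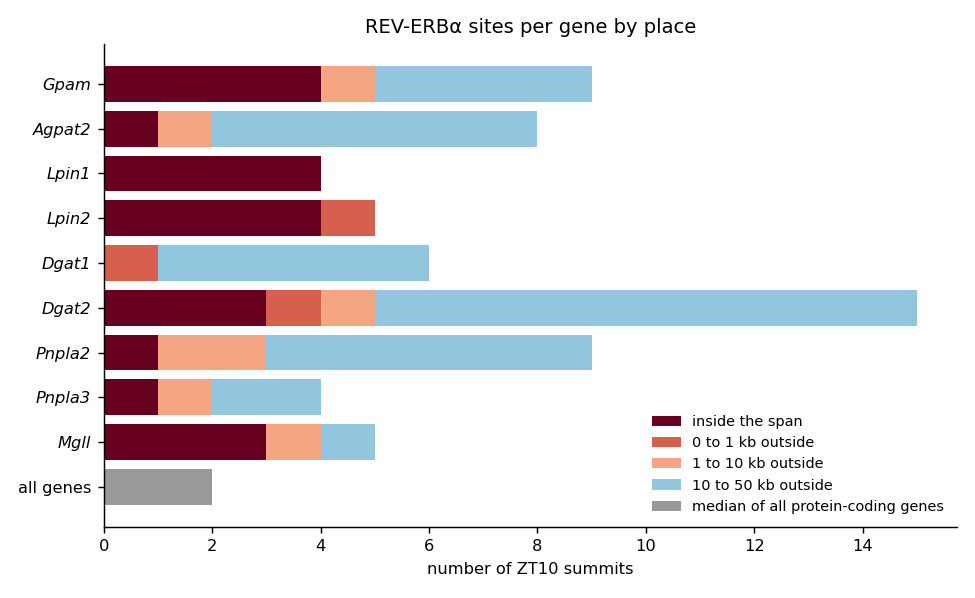
Number of ZT10 summits per gene (horizontal axis), split by place into those inside the span and those 0 to 1 kb, 1 to 10 kb and 10 to 50 kb outside it. The grey bar is the median over all protein-coding genes; Dgat2 has 15 sites, and Lpin1 and Pnpla3 have 4 each, against a median of 2.

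On the lipolysis side, Pnpla3 had the strongest sites of all. It encodes a lipid droplet protein related to adipose triglyceride lipase, and in humans a variant of it is a known risk factor for fatty liver. The strongest peak, from 84154577 to 84157797 on chromosome 15, had a fold of 39.8 with 862 fragments (805 to 922) and ranked 64 in the ZT10 list. Its summit lay 11532 bp upstream of the Pnpla3 start. The next, from 84166704 to 84170404, had a fold of 31.8 with 688 fragments (638 to 741), ranked 185 and had its summit 825 bp downstream of the start. The upstream site was the stronger by more than counting error. A further site of 23.1 lay 7463 bp beyond the other end, inside Samm50, which encodes a mitochondrial outer membrane assembly protein. Of the 65 sites of the 9 genes, 6 ranked among the 1000 strongest of the 27929 ZT10 peaks. The Pnpla3 window thus held 3 of these 6, with only 4 sites in it, and the one inside Samm50 was among the 3.

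The peak of fold 31.8 covered the Pnpla3 promoter, and the 250 bases before the start are shown as the promoter under the strongest such peak among the genes with known starts (RefSeq GRCm38.p6, plus strand, chr15:84167566-84167815). They hold no AGGTCA on either strand, so there are no capitals. The summit itself lay outside this window.
Pnpla3: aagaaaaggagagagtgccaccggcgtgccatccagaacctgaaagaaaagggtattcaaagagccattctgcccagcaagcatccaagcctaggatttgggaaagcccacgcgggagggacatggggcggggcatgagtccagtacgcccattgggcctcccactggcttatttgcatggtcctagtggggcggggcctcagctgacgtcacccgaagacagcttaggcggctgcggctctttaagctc

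Pnpla2 encodes adipose triglyceride lipase, which removes the first fatty acid. Its own site was moderate, with a fold of 9.43 (8.20 to 10.8) and a summit 418 bp downstream of the start on chromosome 7, under a peak that covered the promoter. The other 8 sites in the window had other genes as nearest, in a neighbourhood of 10 other protein-coding genes. They included the strongest, 19.1, inside Tspan4, a tetraspanin gene, 15955 bp beyond the gene, and sites of 11.3 and 10.9 nearest Gatd1 and Cend1. With each site given to its nearest gene only, the strongest fold of Pnpla2 was 9.43.

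Mgll encodes monoacylglycerol lipase, which frees the last fatty acid and also breaks down the endocannabinoid 2-arachidonoylglycerol. A pair of strong sites lay in the first part of this long gene on chromosome 6. The first, with a fold of 22.2, sat under the widest peak of the 65, at 14438 bp from 88723745 to 88738182, with its summit 2637 bp downstream of the nearer of 2 starts. The next, with a fold of 21.8 (19.9 to 23.8), lay 18337 bp downstream, and their folds did not differ beyond counting error. The other 3 sites had folds of 4.10, 4.74 and 4.74, close to the lower limit of the list.

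Taking the 2 sides of the pathway together, 8 of 18 sites (44.4%) of the 3 lipolysis genes and 13 of 47 (27.7%) of the 6 assembly genes had a fold of 10 or more, against 26.98% of all peaks. The median of the strongest fold was 22.2 over the 3 and 16.5 over the 6. The lipolysis side holds only 3 genes. Of its 8 strong sites, 3 lay at Pnpla3, among them the one inside Samm50, and 3 lay in the window of Pnpla2 nearest to other genes. On the assembly side, the strong site nearest Tectb and the one inside Mogat2 also had another gene as nearest. These values describe the genes and were not tested.

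Transcript starts were known for 7 of the 9 genes. The table gave 11 promoter windows for them, and ZT10 peaks overlapped 10 of the 11, against 38.4% of 21045 windows of protein-coding genes. The exception was the Lpin1 window, the only one given for that gene. Lpin2 gave 3 of the 11 windows, and Gpam and Mgll gave 2 each, so the windows are not separate cases. A summit fell inside 1 of the 11 windows, against 11.1% of all windows. Distances were measured to the starts of the gene whose window held the site, and not to starts of other genes. Of the 44 sites of these 7 genes, 4 lay within 1 kb of the nearest such start, 12 lay 1 to 10 kb away and 28 lay farther. Among the 17 with a fold of 10 or more, 1 lay within 1 kb, the Pnpla3 site, 6 lay 1 to 10 kb away and 10 lay farther. Strong sites were found on both sides, with 10 of the 17 upstream and 7 downstream of the nearest start of the same gene. Some upstream ones lay inside the annotated span, with folds of 14.7 and 11.6 at Gpam and 19.2 and 19.4 at Lpin1. Others had another gene as nearest, with folds of 12.9 at Gpam and 11.3 and 10.9 at Pnpla2. Among the downstream ones, those of 19.1 inside Tspan4 and 23.1 inside Samm50 also had another gene as nearest.

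**Figure D4:**
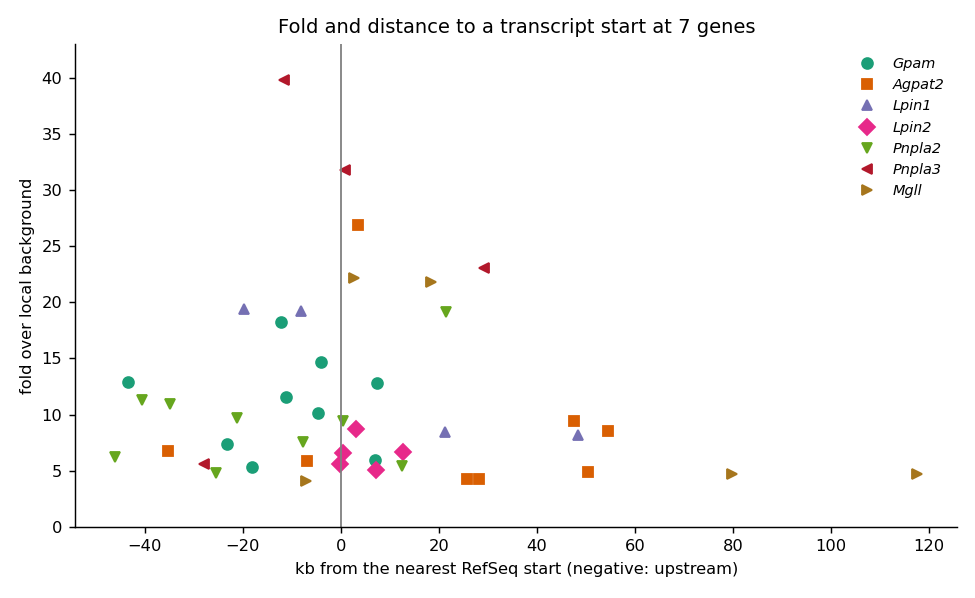
Fold over the local background (vertical axis) of the 44 ZT10 sites at the 7 genes with a known start. The horizontal axis is the distance in kb of the summit from the nearest RefSeq start of the same gene, negative upstream. Each symbol is a gene. Of the 17 sites at a fold of 10 or more, only the Pnpla3 site 825 bp downstream is within 1 kb of a start of its gene.

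The core AGGTCA was searched on both strands of the 300-base windows and occurred in 2 of 11 windows of these genes, at Gpam and Lpin1, against 14.6% of all windows. A longer form with AANT before the core, AANTAGGTCA, contains that core and occurred in 0 of the 11 and in 0.157% of all windows. A direct repeat of the core with 2 bases between, AGGTCANNAGGTCA, was found in 0 of the 11 and in 0 of the 21045. These counts concern windows at starts, and most summits lay outside them. The sequence under the other summits was not analysed here.

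Other genes of glycerolipid metabolism were taken from a list of 32, with further acyltransferases, lipases and their cofactors, glycerol supply and droplet proteins. At ZT22 0 of 32 had a summit within 50 kb, against 0.157% of all protein-coding genes. At ZT10 31 of 32 had one, the exception being Agpat4, against 70.5% of all protein-coding genes. A fold of 10 or more was reached at 22 of 32, against 35.3%, and the median number of sites was 5.5, against 2. The strongest were Pnpla5 at 39.8, Ces1d at 32.8, Agpat3 at 29.2, Gpd1 at 24.1 and Plin2 at 22.6. The Pnpla5 value is the site 11532 bp upstream of Pnpla3, which lay 33109 bp from Pnpla5, so it is not separate evidence for that gene. The same holds for Mogat2, whose strongest site of 14.7 is the one inside Dgat2. Of the other 4, the Agpat3 site lay inside its gene, which encodes a lysophosphatidate acyltransferase related to Agpat2. The Gpd1 site lay 7077 bp outside the gene of the enzyme that makes glycerol-3-phosphate, with Smarcd1 as the nearest gene. The Plin2 site lay 20137 bp from the gene of a droplet coat protein. The Ces1d site lay 36494 bp outside this carboxylesterase gene, nearest to Ces1e. The 9 enzyme genes had a median strongest fold of 19.1, and the 31 pathway genes with a site had 14.5. The 2 sets are not separate, since the Pnpla5 and Mogat2 values are sites of the 9. Ces3a and Ces3b also share the same strongest peak.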

How the data were processed

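ChIP-seq of 3HA-tagged REV-ERBα was read from 2 peak lists, each pooled by the authors from 4 samples according to the labels. Among the tools in the submitters' processing notes are BWA 0.7.17 and MACS2 2.1.2, with mm10 as the build and no roles stated. The control library is not named in the sources used here. The deposited lists hold, for each peak, a fold enrichment, a −log10 p and a −log10 q. The score column in the deposited lists equals 10 times the −log10 q without decimals and was not used.

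Summits were assigned to RefSeq gene spans (GRCm38.p6, the same coordinates as mm10) with a reach of 50 kb, in Python 3.11.15. Pileup was solved from fold and −log10 p with a pseudocount of 1 and the Poisson upper tail. The lowest background was 4.14, found at 87.1% of ZT10 peaks, and 98.2% of all ZT10 summits then came out whole to within 0.1 fragments. The step was tried on simulated data drawn from the same formula, and counts were checked only for peaks at the lowest background. This cannot show whether the formula holds for the real peaks. Depth is thus known at summits only, with 83 to 3321 fragments (median 149). Of the 65 sites, 92.3% were at the lowest background and the highest was 1.69 times it.

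The genes and lists were chosen with earlier results of these data known. All 9 genes are named, with the 5 pathway genes of strongest fold, a pathway gene with no site, and genes nearest to or around sites of fold 10 or more. Uvrag, Egfl7, Dipk1b, Slc52a2 and the wide stretches were named after their values were seen. No test was run, since each time has 1 list. Alternatives were other reaches, a −log10 q of at least 10, the nearest gene only, a fold of 15, merged summits and overlap with the span.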

Additional observations from a re-analysis of the deposited data

How the results depend on the processing

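All 9 genes kept a ZT10 site at a reach of 10 kb, where 54.5% of all protein-coding genes had one, and at 100 kb, where 78.6% had. The 9 also kept one under a −log10 q minimum of 10 and with the nearest gene only, for which shares of all genes are not given here. Of the 9, 0 had a ZT22 site at reaches of 10 and 100 kb. The 65 sites became 31 at a reach of 10 kb and 33 with the nearest gene only, both of which take fewer sites by construction. The median number of sites became 10 at 100 kb, and the median strongest fold 14.7 at 10 kb. The strongest fold of Pnpla2 was 9.43 at 10 kb and with the nearest gene only, and at 100 kb Lpin2 had 20.5 and Dgat1 had 22.04, so that 9 genes reached a fold of 10. The share of all genes that reach this fold at 100 kb is not given here. The other 26 of 30 recomputed summary values stayed within 1.5 times or within counting error. Of the recomputed strongest folds of single genes, 27 stayed by the same rule and 9 moved. The moved ones not named above were Pnpla3 with 31.8, Gpam with 14.7 and Dgat1 with 6.27 at 10 kb, Dgat1 with 6.27 for the nearest gene only, and Dgat2 with 16.9 at 100 kb. No paired analysis was possible because each list merges its 4 samples, which also kept single replicates from being left out. The ZT10 list holds no fold below 4.01 and no summit of fewer than 83 fragments. Weaker binding would not appear in it, so a missing site is one not in the list.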
